A study of Mus musculus with 2 samples.

Results

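Postmitotic immature neutrophils are neutrophil precursors of the bone marrow that have left the cell cycle, still hold large amounts of RNA for the proteins of the specific granules, and have not yet taken on the RNA of the last stage. They were selected on measured RNA levels, from counts of UMIs (tags of single RNA molecules) in 2 single-cell libraries. A barcode had to carry 200 to 9000 detected genes, at most 30% mitochondrial UMIs and at least 1000 UMIs. Among these kept barcodes, members had Camp, Ngp and Ltf together at 4% or more of their UMIs (granule RNA below), no UMI of Mki67 or Top2a, and Retnlg below 0.5% of their UMIs. In all, 1157 of 14142 kept barcodes met the rule, 681 of 8795 in the Ctrl library and 476 of 5347 in the cKO library.

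The study asked what the kinase MAP4K4 does in neutrophil differentiation, and profiled bone marrow of mice aged 13 to 14 weeks by droplet-based 3′ RNA sequencing. The cKO mice carried floxed Map4k4 (Map4k4 f/f) and the Mx1-Cre transgene on a C57BL/6 background, with deletion induced by poly I:C. Mx1-Cre is driven by an interferon-inducible promoter that acts in blood-forming cells and in other tissues. The controls were littermates that the methods write as Mx1-Cre Map4k4-/-, and the sources do not say whether they received poly I:C or how many mice went into a library. Each library mixed c-Kit+ cells with whole bone marrow in the proportion 2 to 3, so shares of barcodes reflect that mixture. With 1 library a genotype, genotype and library cannot be told apart, no difference can be set against a spread between replicates, and p-values are left out.

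Neutrophils arise in the bone marrow through a fixed series of stages, from promyelocytes that make primary granule proteases, through dividing precursors that start the specific (secondary) granules, to immature cells that no longer divide. The secondary granules are filled with antimicrobial and iron-binding proteins. Later, gelatinase granules are formed and the cell gains the receptors with which it answers signals in blood and tissue.

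The 5 marker genes of the stage all encode secreted or granule proteins. Camp (ENSMUSG00000038357, chr9:109847379-109849617, minus strand) encodes the antimicrobial cathelicidin. Ngp (ENSMUSG00000032484, chr9:110419747-110423012, plus strand) encodes neutrophilic granule protein. Ltf (ENSMUSG00000032496, chr9:111019271-111042767, plus strand) encodes the iron binder lactoferrin. Lcn2 (ENSMUSG00000026822, chr2:32384633-32388252, minus strand) encodes lipocalin 2, which captures bacterial siderophores. Orm1 (ENSMUSG00000039196, chr4:63344560-63348163, plus strand) encodes the acute-phase protein orosomucoid 1. Coordinates are those of GENCODE vM21 on GRCm38.

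The promoters of 4 of these genes are shown because their RNAs mark the stage. Each runs 5′ to 3′ on the strand of its gene, from 250 bases before to 50 bases after the RefSeq start on GRCm38.p6. Capitals mark TTNNGCAA or its reverse complement TTGCNNAA, letters that resemble the site of the C/EBP transcription factors, whose member C/EBPε is known as a driver of secondary granule genes.
Camp (chr9:109849407-109849706, minus strand): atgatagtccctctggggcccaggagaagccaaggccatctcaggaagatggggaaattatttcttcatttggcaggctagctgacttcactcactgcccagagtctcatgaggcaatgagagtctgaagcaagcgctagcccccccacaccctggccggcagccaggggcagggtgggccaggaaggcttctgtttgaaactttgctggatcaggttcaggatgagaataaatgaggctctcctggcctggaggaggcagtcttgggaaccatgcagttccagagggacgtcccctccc
Ngp (chr9:110419558-110419857, plus strand): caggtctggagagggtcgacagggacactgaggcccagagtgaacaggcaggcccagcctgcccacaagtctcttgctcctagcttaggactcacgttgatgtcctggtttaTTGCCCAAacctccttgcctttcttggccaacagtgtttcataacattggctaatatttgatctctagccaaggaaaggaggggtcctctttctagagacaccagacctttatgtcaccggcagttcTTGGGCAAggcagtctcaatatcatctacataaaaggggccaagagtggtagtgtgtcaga
Ltf (chr9:111019042-111019341, plus strand): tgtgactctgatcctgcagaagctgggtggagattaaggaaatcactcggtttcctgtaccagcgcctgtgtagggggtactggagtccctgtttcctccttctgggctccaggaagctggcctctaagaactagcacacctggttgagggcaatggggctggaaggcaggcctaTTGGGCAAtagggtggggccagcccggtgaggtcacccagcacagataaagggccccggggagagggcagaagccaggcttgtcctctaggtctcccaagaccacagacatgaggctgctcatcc
Lcn2 (chr2:32387690-32387989, minus strand): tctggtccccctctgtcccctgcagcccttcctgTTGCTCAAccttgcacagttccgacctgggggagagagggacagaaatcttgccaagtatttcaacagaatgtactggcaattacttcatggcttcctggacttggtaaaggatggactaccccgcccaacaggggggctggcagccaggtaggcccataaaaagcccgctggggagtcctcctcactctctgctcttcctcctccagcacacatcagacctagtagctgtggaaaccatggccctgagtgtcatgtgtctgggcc
The matches began at positions -138 and -11 of Ngp, -75 of Ltf and -216 of Lcn2, counted from the start, and the Camp window held none. Of all 32851 promoter windows of the same length, 3547 (10.8%) held a match, and of 11 secondary granule genes with a window, 4 did. A match describes letters, not a bound site.

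Members of the cKO library were captured more deeply than those of the Ctrl library. The median was 4249 UMIs (95% interval 4014 to 4434) in 681 Ctrl members and 9925 UMIs (9167 to 10792) in 476 cKO members, a ratio of 2.34. The members of a library summed to 3200544 UMIs in Ctrl and 4945682 in cKO. Intervals are exact, except that those of differences between shares combine the exact intervals of both shares, and all cover counting error only. Dividing neighbors, defined below, had medians of 8578 and 15557 UMIs, so the gap in depth was not particular to the members. Thinned to 1000 UMIs each, Ctrl members held a median of 417 detected genes and cKO members 368. Mitochondrial UMIs had a median of 0.717% of a Ctrl member's RNA and 0.613% of a cKO member's. The libraries shared 3010 barcode sequences, 13 of them members in both, and no shared barcode had identical counts.

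Of the values that chose the members, granule RNA was close in both libraries and Retnlg was not. Granule RNA had a median of 10.7% of UMIs in Ctrl members and 11% in cKO members. Retnlg had a median of 0.0557% and 0.126% of UMIs, and no Retnlg UMI was found in 15.9% of Ctrl and 2.10% of cKO members, whose depths differ. Just inside the limit of 4%, up to 5%, lay 6 Ctrl barcodes with a median of 2266 UMIs and 31 cKO barcodes with a median of 1340. Just outside, from 3 to 4%, lay 17 and 27 barcodes with medians of 1189 and 1207 UMIs. At the Retnlg limit, 32 Ctrl and 50 cKO members lay between 0.4 and 0.5%, and 29 and 57 barcodes lay between 0.5 and 0.6%. Shallow barcodes thus lay near the 4% limit in both libraries, and more of them fell inside it in cKO. In cKO members with 1000 to 2000 UMIs, 38 in number, Mpo stood at 3572 and Elane at 4475 CPM (UMIs of the gene summed over barcodes, per 1000000 UMIs of those barcodes), and in 22 of them Mpo, Elane, Prtn3 and Ctsg together passed 1% of UMIs. None of the 47 Ctrl members of that depth did, with Mpo at 882 CPM. The part of these barcodes in each result was not tested, and the values of Mpo and of the cycle genes without members under 2000 UMIs are given further on.

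**Figure D1:**
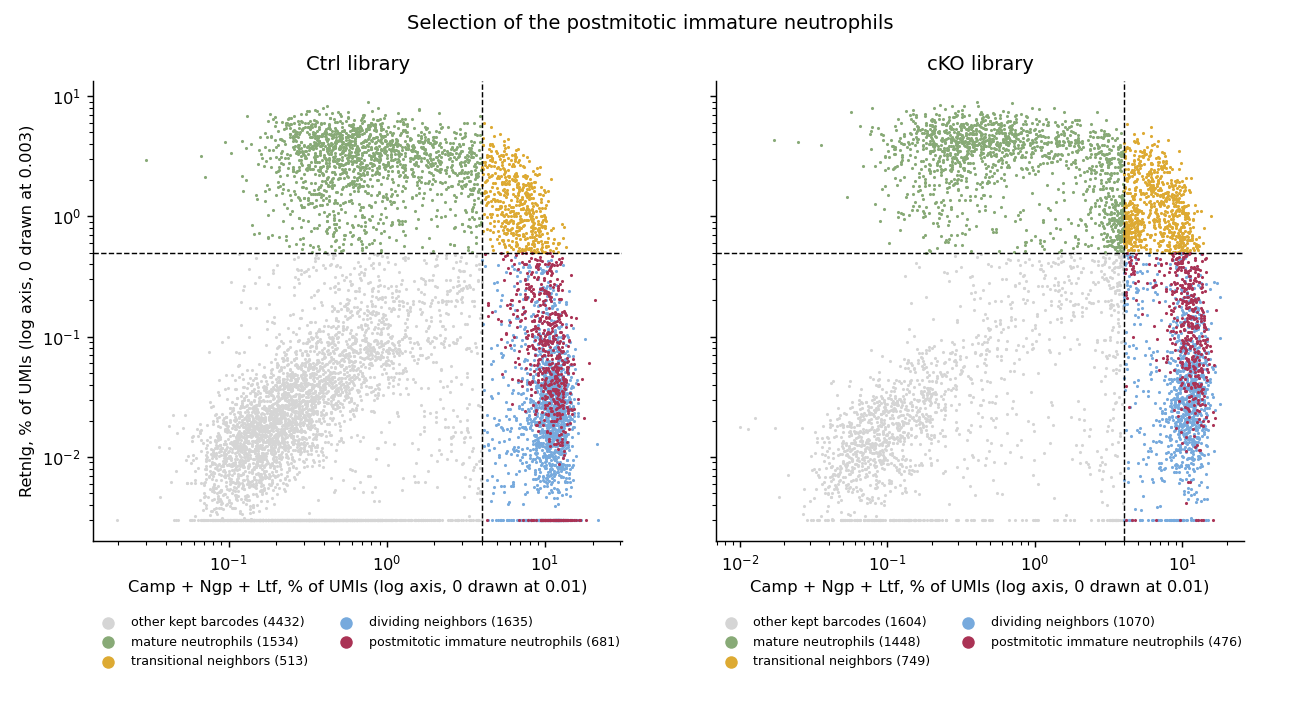
Each point is a kept barcode of the Ctrl (left) or cKO (right) library, by its granule RNA (Camp, Ngp and Ltf, % of UMIs) and Retnlg (% of UMIs), both on log-type axes, with members, dividing, transitional, mature and other barcodes in separate colors. Members fill the block at or above 4% granule RNA and below 0.5% Retnlg, with medians of 10.7% and 11%, and 31 cKO and 6 Ctrl members lie between 4 and 5%.

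Among all kept barcodes, members took 7.74% (7.19 to 8.32) in Ctrl and 8.90% (8.15 to 9.70) in cKO. Among barcodes of the neutrophil series the order was the other way round, with 13.2% (12.3 to 14.1) of 5173 in Ctrl and 10.8% (9.91 to 11.8) of 4404 in cKO. The series here joins members, dividing and transitional neighbors, mature barcodes (Retnlg at or above 0.5%, granule RNA below 4%) and primary granule barcodes (Mpo, Elane, Prtn3 and Ctsg at 2% or more, both other RNAs below their limits). For the same RNA, a barcode with more UMIs is more likely to show a UMI of Mki67 or Top2a, so the rule itself reads depth. With the rule applied after thinning every barcode to 1000 UMIs, the cKO minus Ctrl difference in the share of the series was -3.79 percentage points, against -2.36 (-3.67 to -1.04) as counted. With a wider exclusion of dividing cells it was -0.887, and its interval, -1.85 to 0.0883, included 0. Among barcodes of 4000 to 8000 UMIs it was -10.5 points (-13.5 to -7.35), but this window cuts different parts of each library. It holds the median depth of Ctrl members (4249 UMIs) and of cKO mature barcodes (5406). It leaves out that of cKO members (9925) and of Ctrl mature barcodes (2444), so the value is not a comparison at matched depth. The difference in the share of all kept barcodes, 1.16 points as counted, was -4.29 in that window, -2.22 without barcodes that carry markers of other lineages and -0.399 with Retnlg limited to 0.25%, so it has no stable direction.

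The dividing neighbors share the granule RNA of the members and their low Retnlg but carry at least 1 UMI of Mki67 or Top2a, and numbered 1635 in Ctrl and 1070 in cKO. The transitional neighbors have granule RNA of 4% or more with Retnlg at 0.5% or more, and numbered 513 and 749. Since the rule drew these borders in the same barcodes, the comparisons below describe the members and test nothing.

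Lcn2 and Orm1 were not used to choose members, and they differ in how well they mark them. Lcn2 stood at 16127 CPM in Ctrl members and 22135 in cKO members, against 11709 and 16309 in dividing neighbors. It stood at 11483 and 17275 in transitional neighbors and at 4861 and 8166 in mature barcodes. B-lineage barcodes here are kept barcodes outside the members with at least 3 UMIs of 10 B-lineage genes. After thinning to 1000 UMIs, 55.1% (Ctrl) and 22.0% (cKO) of them held a Cd79a UMI, and 51.0% and 61.9% an Mpo UMI. They are thus no clean sample of another lineage here or below, least of all in cKO. Thinned, 100% of members of each library held a Lcn2 UMI. Of B-lineage barcodes 52.7% in Ctrl and 27.1% in cKO did, from median depths of 3517 and 26192 UMIs before thinning. Dividing and transitional neighbors held a Lcn2 UMI in 98.5% to 100% of barcodes and mature barcodes in 92.4% and 96.4%. Detection of Lcn2 alone does not mark members.

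Orm1 separated members from what follows and hardly from what precedes. It stood at 323 CPM (303 to 343) in Ctrl members and 250 (236 to 264) in cKO members, and at 229 and 233 in dividing neighbors. In transitional neighbors it stood at 54.1 and 46.9, and in mature barcodes at 10.6 and 7.19. Thinned to 1000 UMIs, 25% of Ctrl and 20.2% of cKO members held an Orm1 UMI, close to the 19.2% and 20.4% of dividing neighbors. In transitional neighbors the shares were 4.09% and 4.27%, and in B-lineage barcodes 1.74% and 0 of 118. Ltf, Camp and Ngp chose the members and cannot check their label. Of the 2 markers outside the rule, Lcn2 was higher in members than in each neighboring stage of both libraries, while Orm1 was near its dividing level in cKO members.

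The granule genes did not peak together. Camp was highest in dividing neighbors (58703 CPM in Ctrl and 55155 in cKO), slightly lower in members (53875 and 48393) and lower again in transitional neighbors (31043 and 28434). Chil3, a chitinase-like secreted protein, took the same course, with 8463 and 7570, then 6111 and 5175, then 2833 and 2087. Ngp, Ltf and Lcn2 instead were highest in the members of both libraries, with Ltf at 17073 and 16879 CPM against 10126 and 9788 in dividing neighbors and 13581 and 13765 in transitional neighbors. Summed over the 10 secondary granule genes of the list that did not choose the members, RNA took 3.12% of UMIs in Ctrl members and 3.74% in cKO members, against 2.68% and 3.22% in dividing, 2.55% and 3.19% in transitional and 1.39% and 1.92% in mature barcodes.

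Fcnb, which encodes ficolin B, marked the earlier side. It stood at 313 and 316 CPM in Ctrl and cKO members, at 1282 and 1264 in dividing neighbors and at 165 and 125 in transitional ones. Primary granule proteases were lower in members than in dividing neighbors. Elane, neutrophil elastase, stood at 226 and 135 in members against 1264 and 1410 in dividing neighbors. Prtn3, proteinase 3, stood at 163 and 132 against 814 and 1121. Thinned to 1000 UMIs, 21.1% of Ctrl and 16.2% of cKO members held an Elane UMI, against 28.2% and 33.3% of dividing neighbors. B-lineage barcodes held one in 39.0% and 56.8%. Their own median share of primary granule RNA was 0.135% in Ctrl and 1.40% in cKO, so they set no background level here. How much of the level in members is background was not tested. Of 10 primary granule genes with a level of at least 50 CPM in members or neighbors, 7 were lower in members than in dividing neighbors by 2-fold or more in both libraries and none was higher. That rule (2-fold in both libraries) gave 345 lower genes of 2507 (13.8%) and 98 higher ones (3.91%) against dividing neighbors. A gene at 50 CPM only in dividing neighbors could only count as lower, so the floor set part of these counts. Within members, 2003 genes reached 50 CPM in either library, 7 of them primary granule genes.

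**Figure D2:**
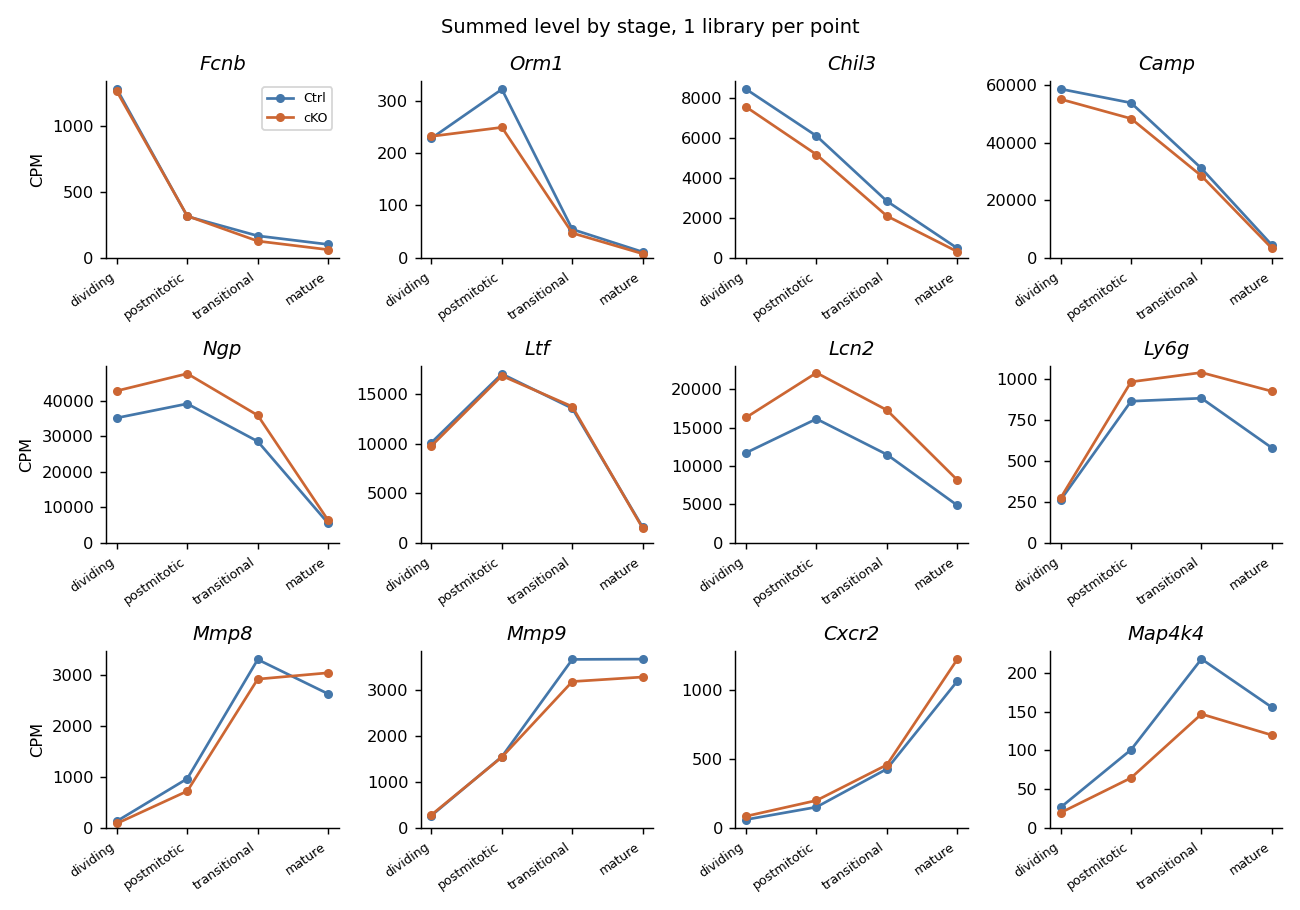
CPM (vertical axes, each starting at 0) of 12 genes in dividing, postmitotic (the members), transitional and mature barcodes of the Ctrl and cKO libraries. Camp, Chil3 and Fcnb are highest in the dividing stage, Ngp, Ltf and Lcn2 in the members, and Mmp8, Mmp9, Cxcr2 and Map4k4 are higher in the transitional barcodes than in the members in both libraries.

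The word postmitotic was checked with 65 replication and mitosis genes that exclude Mki67 and Top2a. They took 0.0883% of the UMIs of Ctrl members and 0.0399% in cKO members, against 0.748% and 0.675% in dividing neighbors. In transitional neighbors they took 0.182% and 0.0981%, but the rule set no limit on Mki67 and Top2a there. At least 1 UMI of those 2 genes was found in 36.8% of Ctrl and 32.3% of cKO transitional barcodes. The shares of members and transitional neighbors thus do not stand under the same limit. Over both libraries the members' share was 0.0589%, and it was 0.350% with the rule applied after thinning to 1000 UMIs, where the absence of Mki67 and Top2a is a weaker criterion. Within the barcodes of high granule RNA and low Retnlg, the share was higher with each step in UMIs of Mki67 and Top2a, from 0.0883% at 0 UMIs through 0.125% at 1 and 0.304% at 2 to 0.916% above 10 in Ctrl. In cKO it went from 0.0399% through 0.0684% and 0.160% to 0.830%. Barcodes with exactly 1 UMI, 302 in Ctrl and 190 in cKO, thus lay close to the members, just outside the rule.

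Single cycle genes were low but not absent. Mitosis genes were lower in members than in dividing neighbors for 31 of 31 genes with a measured level, and replication genes for 18 of 19. A measured level meant at least 50 CPM in members or dividing neighbors. Within members, 2 mitosis and 0 replication genes reached it, so the floor largely set the direction of these counts. Summed over all listed genes without a floor, log2 ratios were -3.45 (Ctrl) and -4.42 (cKO) for mitosis. For replication they were -2.55 and -3.55. Pcna, the sliding clamp of DNA replication, stood at 48.1 CPM in Ctrl members and 21.4 in cKO members against 297 and 248 in dividing neighbors. Birc5, a subunit of the chromosomal passenger complex, stood at 16.3 and 7.08 against 240 and 264. The histone gene Hist1h2ap stood at 114 and 61.3 against 1891 and 1769. Cyclin D3 (Ccnd3) stood at 474 and 456 in members and at 453 and 468 in dividing neighbors, a difference within 5%.

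**Figure D3:**
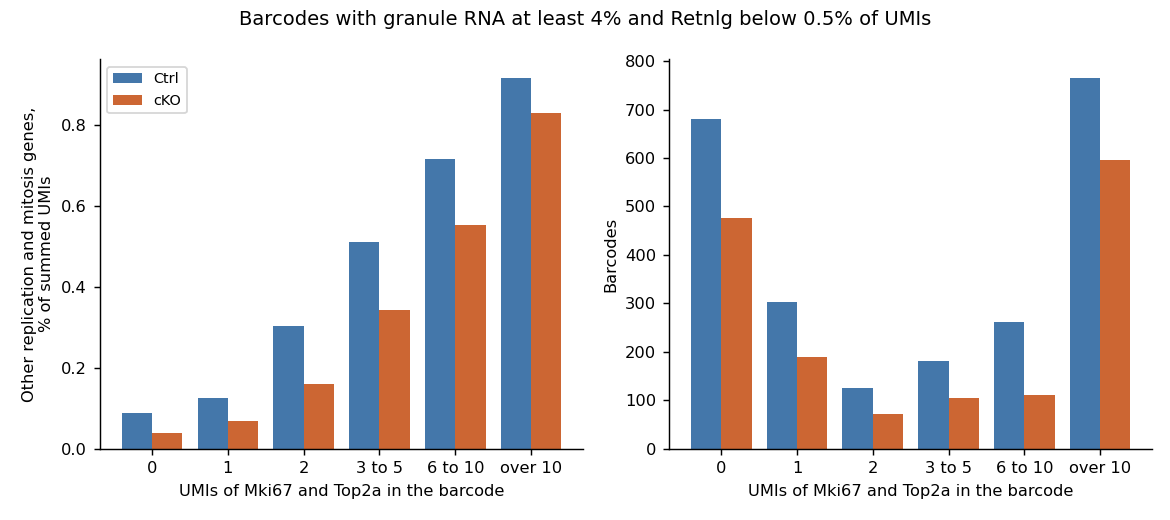
Among barcodes with granule RNA of at least 4% and Retnlg below 0.5%, the left bars give the share of summed UMIs in 65 other replication and mitosis genes (%) and the right bars the number of barcodes, by UMIs of Mki67 and Top2a and by library. The share goes from 0.0883% (Ctrl) and 0.0399% (cKO) at 0 UMIs, the members, to 0.916% and 0.830% above 10 UMIs.

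The matrix metalloproteinase genes Mmp8 and Mmp9 were the highest in members over dividing neighbors. Mmp8, neutrophil collagenase, stood at 966 CPM in Ctrl members and 720 in cKO members against 131 and 84.8 in dividing neighbors, log2 ratios of 2.88 and 3.09. Mmp9, the gelatinase of the tertiary granules, stood at 1545 and 1535 against 266 and 282. Fpr2, a formyl peptide receptor, stood at 589 and 490 against 147 and 145. Ly6g, the surface antigen by which mouse neutrophils are recognized, stood at 866 and 984 against 261 and 273. Slfn4 and Slfn1, of the Schlafen family, were 4-fold or more higher in both libraries, as was Mmp8, with Slfn4 at 637 and 650 against 143 and 136. Of 20 measured genes of the gelatinase granule and late neutrophil list, 10 were higher and none lower, and of 23 adhesion and chemotaxis receptors 4 were higher and none lower.

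No gene of the oxidase or proteasome lists passed 2-fold across the end of division. The 7 genes of the NADPH oxidase, which makes superoxide in the phagosome, took 0.726% and 0.762% of UMIs in members against 0.572% and 0.633% in dividing neighbors. Their most abundant gene Cybb stood at 2538 and 2251 CPM against 1711 and 1542. The 16 proteasome genes had a median log2 ratio of -0.52 against -0.07 over all 2507 genes. Ribosomal protein RNA took 4.30% and 4.78% of UMIs in members against 7.46% and 8.27% in dividing neighbors. Of 8 genes of the nuclear lamina list, 4 were lower and none higher, while Zmpste24, the protease that matures prelamin A, was within 2-fold at 434 and 412 CPM against 242 and 216.

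Against transitional neighbors the members were lower in late genes. Of 2335 genes, 10 were higher in members by 2-fold or more in both libraries (0.428%) and 77 were lower (3.30%). With the rule applied after thinning to 1000 UMIs this balance was not kept, and 137 were higher and 166 lower. Of 25 gelatinase granule and late genes 12 were lower and none higher. Mmp8 stood at 3305 and 2920 CPM in transitional neighbors, 3-fold or more above the members, and S100a6, a small calcium-binding protein, at 4811 and 7526 against 1907 and 3571. Cxcr2, the chemokine receptor through which neutrophils leave the marrow, stood at 427 and 456 against 150 and 198. Fpr1, another formyl peptide receptor, stood at 192 and 209 against 51.9 and 68.8. Retnlg itself was part of the rule and is not counted.

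The genes that members held above transitional neighbors were led by Orm1, with log2 ratios of 2.58 in Ctrl and 2.41 in cKO, and Zmpste24, with 1.71 and 1.45. Chil3 followed with 1.11 and 1.31. Lta4h, leukotriene A4 hydrolase, which makes the chemoattractant leukotriene B4, stood at 745 and 699 CPM in members, near its level in dividing neighbors (768 and 712), and at 355 and 347 in transitional neighbors. St3gal5, the GM3 synthase of ganglioside synthesis, peaked in members, at 669 and 424 against 228 and 145 before and 358 and 240 after. Mgst2, a microsomal glutathione transferase, stood at 360 and 424 against 229 and 252. The 16 measured genes of the secretory pathway and ER folding list had a median log2 ratio of 0.39, with none past 2-fold, where the median of all genes was -0.14.

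The transcription factor C/EBPε, required for secondary granule genes, was lower past the members than before them. Cebpe stood at 512 CPM in Ctrl members and 454 in cKO members, at 563 and 562 in dividing neighbors, at 349 and 250 in transitional neighbors and at 109 and 63.7 in mature barcodes. Spi1, which encodes PU.1, went the other way over the same stages, from 268 and 282 in dividing neighbors through 320 and 333 in members to 545 and 632 in mature barcodes. Mcl1, the survival factor of the BCL2 family on which neutrophils depend, stood at 194 and 145 in members against 112 and 77.8 before and 272 and 229 after. None of 6 measured genes of the BCL2 and caspase list passed 2-fold between members and either neighbor.

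Against all 12985 other kept barcodes, which include progenitors and other lineages, 92 of 3330 genes were higher (2.76%) and 1224 lower (36.8%). St3gal5 led by the lower ratio of the 2 libraries, followed by Zmpste24 and AA467197, with Olfm4, Ifitm6 and Orm1 also among the highest. Ltf was among them too, but it chose the members and is not read. AA467197, a small transcript of unnamed function here, stood at 789 and 923 CPM against 107 and 239. Of 12 primary granule genes 10 were lower, and of 24 secretory pathway genes 16 were lower. The abundant RNAs of the members were S100a9 (169527 and 184472 CPM) and S100a8 (124345 and 145116), the subunits of calprotectin, followed by Camp and Ngp. S100a8 and S100a9 took a median of 29.3% of a Ctrl member's UMIs and 32.7% of a cKO member's.

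Members were not uniform. Camp ranged from 0.725% to 11.4% of UMIs over Ctrl members around a median of 5.19% with an SD of 1.58 percentage points, and from 1.06% to 9.15% around 4.67% in cKO members. Olfm4, olfactomedin 4, known to be made by a subset of neutrophils, was found in 91 of 681 Ctrl members and 36 of 476 cKO members. Where it was found it was abundant, at a median of 0.251% and 0.323% of UMIs, and 67 and 28 members held 3 UMIs or more. Thinned to 1000 UMIs, 10.1% of Ctrl and 6.09% of cKO members held an Olfm4 UMI, near the dividing (9.30% and 4.49%) and transitional shares (10.1% and 5.34%), while 1.74% and 0 of 118 B-lineage barcodes did. The share of barcodes with Olfm4 was thus alike in these 3 stages of each library.

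Ordering members by the summed share of 29 late genes without Retnlg, and cutting each library into tertiles of 227 (Ctrl) or 158 to 159 barcodes (cKO), showed the same course inside the stage. Genes of the ordering list, such as Mmp9, are higher by construction and are not reported. Mmp8, which is not in that list, went from 106 through 754 to 2250 CPM in Ctrl and from 64.1 through 530 to 1744 in cKO. Ly6g went from 602 to 1070 and from 696 to 1331 between the lowest and the highest tertile. Fcnb went the other way, from 579 through 208 to 100 and from 591 through 227 to 82.6. Orm1 went from 462 through 296 to 181 in Ctrl and from 372 through 239 to 112 in cKO.

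Granule genes again split in this ordering. Camp went from 62811 to 43974 CPM in Ctrl and from 55822 to 39094 in cKO, while Ltf went from 15867 to 17871 and from 15838 to 18281. Ribosomal protein RNA went from 4.80% to 3.70% and from 5.63% to 3.80% of UMIs. The cycle genes took 0.10% and 0.0476% in the lowest tertile and 0.0813% and 0.0357% in the highest. Median depth went down along the tertiles too, from 4525 to 3925 UMIs and from 10500 to 8314, and its part in these shares was not tested.

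**Figure D4:**
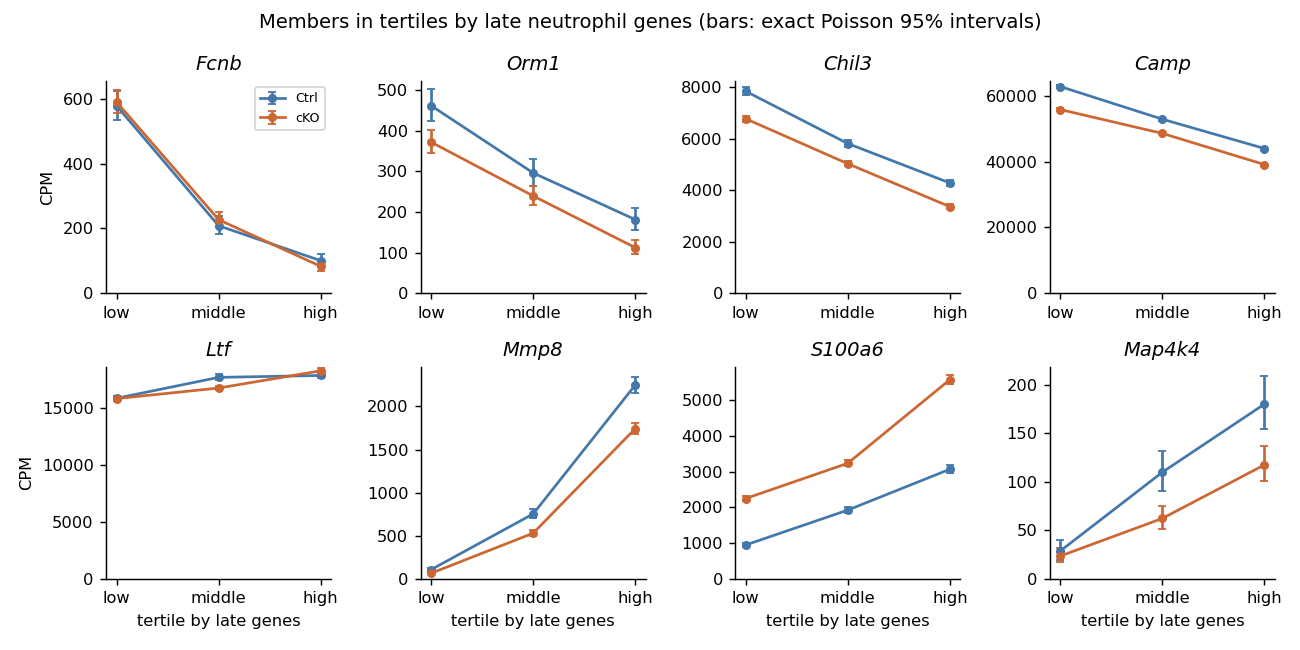
CPM (vertical axes) of 8 genes in members cut into tertiles of each library by the share of 29 late genes, from the lowest to the highest tertile, with exact Poisson 95% intervals as bars. Fcnb, Orm1, Chil3 and Camp are lower and Mmp8, S100a6 and Map4k4 higher in the highest than in the lowest tertile of both libraries, with Map4k4 going from 28.7 to 180 in Ctrl and from 23.4 to 117 in cKO.

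Map4k4 (ENSMUSG00000026074, chr1:39900913-40026310, plus strand), the targeted gene, encodes a serine/threonine kinase. It had 323 UMIs in Ctrl members, 101 CPM (90.2 to 113), and 319 in cKO members, 64.5 CPM (57.6 to 72.0), giving -0.65 (-0.87 to -0.42) as the log2 of cKO over Ctrl. The ratio was -0.44 in dividing, -0.57 in transitional and -0.38 in mature barcodes. In members of 4000 to 8000 UMIs it was -0.36 (-0.82 to 0.09). Counts from the 3′ end do not show whether the deleted exons were read, so the remaining RNA does not check the cKO label. In both libraries Map4k4 was lowest in dividing neighbors (26.4 and 19.5 CPM) and highest, among the 4 stages from dividing to mature, in transitional neighbors (218 and 147). Over the tertiles of members it went from 28.7 through 110 to 180 in Ctrl and from 23.4 through 62.2 to 117 in cKO. The lowest tertiles held only 34 and 42 Map4k4 UMIs, with wide intervals of 19.8 to 40.0 and 16.9 to 31.7 CPM. Intervals were 90.7 to 132 and 50.9 to 75.3 in the middle tertiles and 154 to 209 and 101 to 136 in the highest. They cover counting error only, and whether the gap between libraries changes over the tertiles was not tested. Stat5b, a transcription factor of cytokine signaling, stood at 44.1 and 28.3 CPM (-0.64, from -0.99 to -0.29), and Stat5a at 9.37 and 6.47 (-0.54, from -1.30 to 0.23).

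Between the libraries few genes of the members differed by 2-fold. Of 2003 genes with at least 50 CPM in either library, 13 (0.649%) were higher and 45 (2.25%) lower in cKO members. A gene that reached 50 CPM in only 1 library could count only as higher in that library. Under median-of-ratios scaling, which sets the median gene to no change, 16 were higher and 19 lower. The median log2 ratio of all 2003 genes was -0.25, and -0.20, -0.32 and -0.30 in dividing, transitional and mature barcodes. Ratios are given on the scale of total UMIs, and median-of-ratios scaling adds 0.25 to each.

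The granule genes of the stage differed little between the libraries, and not all in 1 direction. Lcn2 had a log2 ratio of 0.46 (0.44 to 0.47) and Ngp of 0.28 (0.27 to 0.29). Camp stood at -0.16 (-0.16 to -0.15), Chil3 at -0.24 (-0.27 to -0.21) and Ltf at -0.02 (-0.03 to -0.001), and all 3 turned positive under median-of-ratios scaling, to 0.10, 0.01 and 0.23. Orm1 stood at -0.37 (-0.49 to -0.25). The secondary granule list as a whole was at 0.09, against 0.10, 0.16 and 0.26 in dividing, transitional and mature barcodes. Ceacam10 alone passed 2-fold, from 103 to 206 CPM (1.01), with 1.09 in dividing and 1.07 in transitional neighbors.

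The Ifitm family, membrane proteins known to restrict virus entry, showed the highest ratios among the lists apart from immunoglobulin. Ifitm6 stood at 3725 CPM in Ctrl members and 6682 in cKO members (0.84, 0.81 to 0.87), and Ifitm2 at 369 and 954 (1.37, 1.28 to 1.46). The sum of 4 genes had a log2 ratio of 0.87 in members, 0.97 in dividing, 1.04 in transitional and 1.54 in mature barcodes. Ifitm2 and Ifitm1 passed 2-fold. In members of 4000 to 8000 UMIs, where depth is alike, Ifitm6 kept a ratio of 0.83 and Ifitm2 of 1.42. The 30 interferon-stimulated genes of another list had a summed ratio of -0.54, and the 2 of them above the floor stayed within 2-fold.

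Further genes were higher in cKO members without being particular to them. The gelatinase granule and late neutrophil list, which includes Retnlg, had 3 of 21 measured genes past 2-fold higher and none lower, and a summed ratio of 0.33, against 0.29 in dividing, 0.11 in transitional and 0.33 in mature barcodes. Retnlg itself, held below a limit by the rule, had a ratio of 0.68. S100a6 stood at 1907 and 3571 CPM (0.91), with 0.99 in dividing, 0.65 in transitional and 0.47 in mature barcodes. Tspo, a mitochondrial outer membrane protein, stood at 298 and 582 (0.96). Asprv1, a retroviral-like protease of late neutrophils, stood at 18.8 and 99.3 (2.41), with ratios of 1.69 to 1.93 in the other stages. The stefin genes Stfa1 and Cstdc5 also passed 2-fold, from 11.9 to 79.1 and from 3.44 to 92.0 CPM, and are named after their values were seen. They belong to a cluster of near-identical genes among which reads can be split. Asprv1, Stfa1 and Cstdc5 lay below 50 CPM in Ctrl members and were counted through cKO alone, so the floor set their direction. Of the 13 genes higher in members, 9 were also higher in dividing, 10 in transitional and 9 in mature barcodes, 6, 7 and 6 of them past 2-fold. Leaving out barcodes with over 1% immunoglobulin RNA brought the 13 to 8.

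Among genes of at least 200 CPM, mt-Nd2, Lrmp and Mpo were the lowest in cKO members, and hemoglobin, described below, was lower still at less than that level. Of 10 mitochondrial genes 3 passed 2-fold, and of 6 nuclear-retained genes 1 did. mt-Nd2 stood at 219 CPM in Ctrl members and 72.6 in cKO members (-1.59), and mt-Nd1 at 395 and 184 (-1.10), both subunits of respiratory complex I. Gm42418, a transcript that overlaps ribosomal RNA, stood at 30979 and 14170 (-1.13), and Lars2, the mitochondrial leucyl-tRNA synthetase, at 704 and 314 (-1.17). Lrmp, a membrane protein of the endoplasmic reticulum, stood at 255 and 100 (-1.35), and the transcription factor gene Klf2 at 236 and 118 (-1.0). Of the 45 lower genes, 43 had the same sign in dividing, 44 in transitional and 45 in mature barcodes, and 14, 20 and 20 passed 2-fold there. With members of 4000 to 8000 UMIs, Klf2 moved to -0.41.

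RNAs of earlier stages differed between the libraries in both directions. Mpo, myeloperoxidase, stood at 317 and 131 CPM (-1.28), and Elane had a log2 ratio of -0.74. After thinning, 30.8% of Ctrl and 13.4% of cKO members held an Mpo UMI, against 51.0% and 61.9% of B-lineage barcodes. Those hold primary granule RNA themselves, most of all in cKO, and set no background level. The background part of Mpo and Elane in members was not tested, so these ratios are not read as expression in members. Ptma, prothymosin alpha, of proliferating cells, stood at 337 and 159 (-1.09). Fcnb differed little, and Serpinb1a, a protease inhibitor and the most abundant gene of the primary granule list, stood at 742 and 926 (0.32). Of 7 measured primary granule genes 1 passed 2-fold, and the list's summed ratio of -0.14 turned to 0.13 with the rule applied after thinning, 0.11 under median-of-ratios scaling and 0.46 as a mean of per-barcode proportions. The replication list had a ratio of -1.23 and the mitosis list of -1.08, against -0.23 and -0.11 in dividing, -0.84 and -0.91 in transitional and -0.86 and -0.65 in mature barcodes. Mpo and Elane are scarce in members and plentiful in the shallow cKO barcodes named above. Mpo stood at -1.69 without members under 2000 UMIs and at 0.07 as a mean of per-barcode proportions. The cycle ratios moved in both directions under the alternatives, and the cause was not tested. Without members under 2000 UMIs they were -1.38 (replication) and -1.22 (mitosis). In members of 4000 to 8000 UMIs they were -1.01 and -0.79, and with the rule applied after thinning -0.32 and -0.09. As a mean of per-barcode proportions they were -0.47 and -0.28. In members with 1000 to 2000 UMIs the order was the other way round, with cycle genes at 2066 CPM in Ctrl and 5109 in cKO.

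**Figure D5:**
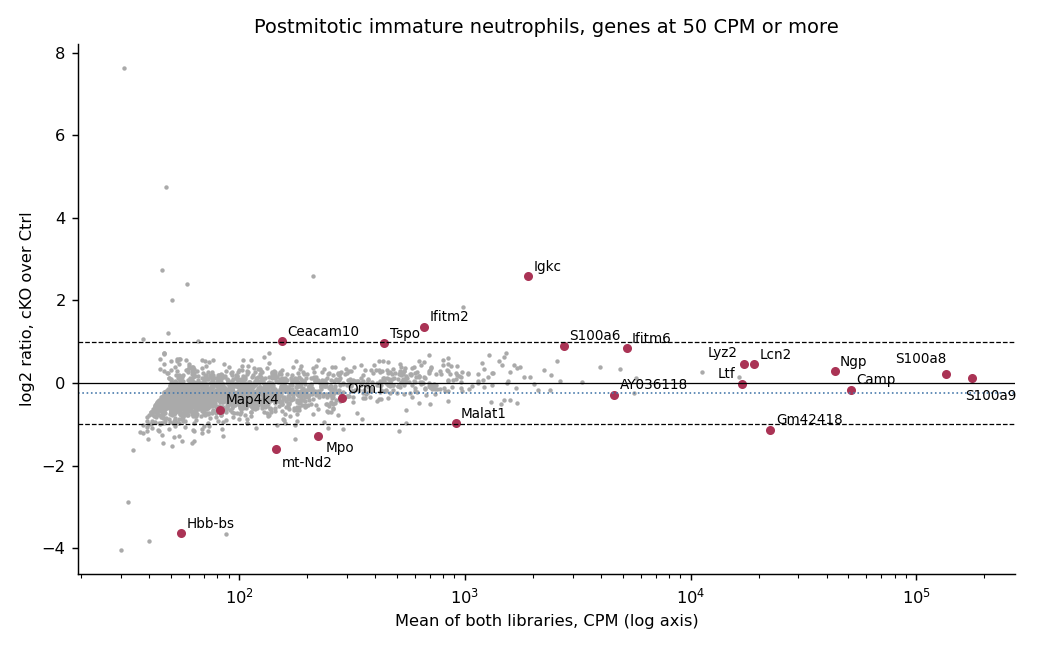
Log2 ratio of cKO over Ctrl in members (vertical axis) against the mean level in CPM (horizontal log axis) for 2003 genes, with selected genes marked and a dotted line at the median of -0.25. Most genes lie within 2-fold, 13 above and 45 below, and Igkc, the highest of the marked genes at 2.59, takes most of its cKO level from 1 barcode.

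RNA of other lineages was scarce in members of both libraries and lower in those of the cKO library for each list given here, except that the T and NK list turned from -0.73 to 0.25 (-0.66 to 1.10) in members of 4000 to 8000 UMIs. Hemoglobin RNA took 0.0375% of UMIs in Ctrl members and 0.00317% in cKO members (log2 ratio -3.56). All 3 measured hemoglobin genes were lower, with Hba-a2 highest at 162 and 12.9 CPM. They were counted through Ctrl alone, since the list summed to 31.7 CPM in cKO members, so the floor set their direction. The ratio of the summed list was -4.61, -2.80 and -3.34 in dividing, transitional and mature barcodes. The 10 B-lineage genes took 0.00787% and 0.00115%, with Cd79a highest at 12.8 and 5.86 and 5 of the 10 at 0 in cKO. The 10 T and NK genes took 0.00272% and 0.00164%, and 2 of them were at 0 in Ctrl and 6 in cKO. The monocyte (0.0104% and 0.00675%), macrophage (0.0115% and 0.00817%) and stem and progenitor lists (0.00341% and 0.00121%) were at the same low order. Some of these lists also differed by stage. The T and NK genes stood 1.93 and 1.94 above dividing neighbors on the log2 scale, the B-lineage genes 0.71 and 0.78 above them, and monocyte RNA took 0.0430% and 0.0303% in mature barcodes. Their part in the ratios of granule genes was not tested, and each is far below the granule RNA.

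Immunoglobulin RNA was an exception that came down to a single barcode. Igkc stood at 545 CPM in Ctrl members and 3272 in cKO members (2.59), with Jchain and Igha also higher. A single cKO member with 49721 UMIs held 23928 immunoglobulin UMIs, 48.1% of its RNA and 96.6% of the immunoglobulin RNA of all cKO members, beside 4.36% granule RNA. Without it immunoglobulin RNA stood at 174 CPM in cKO members, below the 1174 of Ctrl members.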

How the data were processed

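The authors deposited raw UMI counts per gene and barcode for both libraries, made with Cell Ranger 5.0.0 on mm10 (GRCm38), without normalization and before the limits of 200 to 9000 genes and 30% mitochondrial UMIs named in the methods, and the minimum of 1000 UMIs was added here. Deposited were 10220 Ctrl barcodes (71527701 UMIs) and 6872 cKO barcodes (64393950 UMIs), over 32285 genes. Groups were taken from the labels.

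Levels (CPM) are counts summed over barcodes and divided by their total UMIs, times 1000000. Shares carry exact Clopper-Pearson 95% intervals, levels exact Poisson intervals and log2 ratios exact binomial intervals of both sums, and differences of shares a square-and-add combination of the exact intervals of both shares. Genes with at least 50 CPM in either group were counted, and 2-fold marks a size, not a test. Named genes were Map4k4, Stat5a and Stat5b, the 15 most abundant genes, the 8 highest and 8 lowest ratios of each comparison among genes of at least 200 CPM, and genes of the lists described. No doublet caller was run, while the study used DoubletFinder. Barcodes with 3 or more UMIs of other-lineage markers were left out as an alternative instead. Members and lists were chosen with earlier results of these data known.

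Alternatives changed the rule, the filters, the scaling and the floor, and 3 of them (a depth window of 4000 to 8000 UMIs, leaving out barcodes with over 1% immunoglobulin RNA, and allowing 1 UMI of Mki67 and Top2a) were chosen after seeing the data. The scripts were tested on simulated data. Promoter windows came from RefSeq, which had none for Orm1 in the table used. Python 3.11.15, numpy 2.4.6, scipy 1.17.1, pandas 2.3.3 and matplotlib 3.10.9 were used.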

Additional observations from a re-analysis of the deposited data

Results flagged for a closer look

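Immunoglobulin RNA of the members went against that of their neighbors. The log2 ratio of cKO over Ctrl for Jchain, the joining chain of secreted antibodies, exceeded that in dividing, transitional and mature barcodes by 6.86, 4.67 and 7.92. For Igkc, the kappa constant region, the excess was 5.95, 4.21 and 6.50, and for Igha, the IgA heavy chain, 7.26, 6.48 and 7.32. In each case the ratio was above 0 in members and below 0 in the other stages, and the difference was not tested. All 3 ratios were negative in members once barcodes with over 1% immunoglobulin RNA were left out, and 1 cKO barcode held 96.6% of this RNA.

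The ratio for Ltf lay on the other side of 0 in members than in transitional neighbors, by -0.036 on the log2 scale, and this difference was not tested either.

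Some barcodes that the filters removed met the other limits of the rule. Of 1525 removed cKO barcodes, 100 (6.56%, 5.37 to 7.92) met the limits on granule RNA, Mki67 and Top2a, and Retnlg, and of 1425 removed Ctrl barcodes 46 (3.23%, 2.37 to 4.28) did. Their median depth was 751 and 699 UMIs. They held 1.23% and 0.526% primary granule RNA, against 0.967% and 0.525% over all removed barcodes, whose median granule RNA was 2.95% in cKO and 1.42% in Ctrl.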

How the results depend on the processing

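No paired analysis was possible because both groups hold 1 library, numbered 1. The difference in the share of all kept barcodes (1.16 percentage points, cKO minus Ctrl) was -0.399 with Retnlg below 0.25%, -2.22 without barcodes with markers of other lineages, -4.29 in barcodes of 4000 to 8000 UMIs and 2.58 when the rule was applied after thinning to 1000 UMIs. The difference in the share of the neutrophil series (-2.36 points) was -3.79 after thinning, -0.887 (-1.85 to 0.0883) with a wider exclusion of dividing cells, -4.80 without barcodes with other markers, -10.5 in the depth window and -3.88 with at most 1 UMI of Mki67 and Top2a. The ratio of median UMIs (2.34) was 1.15 in the depth window, which cuts different parts of the stages in the 2 libraries. Map4k4 (-0.65) was -0.40 with median-of-ratios scaling and -0.36 in the depth window. The share of UMIs in cycle genes over both libraries (0.0589%) was 0.0649% with granule RNA of at least 2%, 0.0543% with at least 8%, 0.350% after thinning, 0.0427% with the wider exclusion, 0.0546% with at least 2000 UMIs, 0.0652% without other markers, 0.0683% in the depth window and 0.0700% with at most 1 UMI.

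The count of genes past 2-fold between libraries (58) was 35 after thinning, 35 with median-of-ratios scaling (16 higher and 19 lower, against 13 and 45), 13 with a floor of 200 CPM and 196 with a floor of 20. The count over dividing neighbors (443) was 172 after thinning, 106 and 872 with those floors and 257 in the depth window. The count over transitional neighbors (87) was 51 with granule RNA of at least 8%, 303 after thinning (137 higher and 166 lower, against 10 and 77), and 22 and 178 with the floors.

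Median-of-ratios scaling turned Camp to 0.10, Chil3 to 0.009, Ltf to 0.23, and the cell-cycle control, primary granule and secretory pathway lists to 0.013, 0.11 and 0.038. Ltf was also 0.02 with the wider exclusion. The primary granule list was 0.13 after thinning and 0.46 as a mean of per-barcode proportions, where Mpo was 0.069. The T and NK list was 0.25 in the depth window. Hist1h2ap over transitional neighbors was 2.08 after thinning. Immunoglobulin ratios turned negative without the single barcode. With granule RNA of at least 8%, after thinning, with the wider exclusion, without other markers, in the depth window and without barcodes over 1% immunoglobulin, the plasma cell list was -2.85, -3.63, -2.83, -2.70, -2.49 and -2.87, Jchain was -4.19, -5.10, -4.14, -4.51, -5.47 and -4.31, Igkc was -3.01, -3.80, -2.82, -2.66, -2.73 and -2.99, and Igha was -4.65, -5.95, -4.74, -4.56, -4.01 and -4.67, with Igha at -0.55 as a mean of proportions. The cause of the other moves was not tested. Over 32 lists, 448 alternative values left 294 within the counting interval, moved 142 and reversed 12. For 31 named genes between libraries, 434 values left 262, moved 148 and reversed 24, and for 28 named genes over neighbors 392 values left 225, moved 166 and reversed 1.

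Only 1 library a genotype was available, so no interval includes the spread between mice. Depth differs between libraries. Counts of genes past 2-fold leave out genes below 50 CPM.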

Other observations

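Several metabolic and regulatory lists had summed log2 ratios between -0.39 and 0.33 in members. Glycolysis genes took 0.459% of UMIs in Ctrl members and 0.576% in cKO members, with Gapdh, glyceraldehyde-3-phosphate dehydrogenase, at 1145 and 1884 CPM, and 0 of 13 measured genes passed 2-fold. The lipid mediator list had a log2 ratio of 0.29, led by Anxa1, annexin A1, an inhibitor of inflammation, at 4287 and 5404 CPM. Of 24 cholesterol synthesis genes, 3 were above the floor and Fdps, farnesyl diphosphate synthase, stood at 29.1 and 67.7 CPM, with ratios of 1.22 in members, 1.27 in dividing, 1.16 in transitional and 1.55 in mature barcodes. Fdps lay below 50 CPM in Ctrl members and was counted through cKO alone, so the floor set its direction. It was named after its value was seen. The 12 measured transcription factors of granulopoiesis had a median ratio of -0.37, and Gfi1, a repressor needed for neutrophil formation, stood at 26.6 and 14.4.

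Xist stood at 234 CPM in Ctrl members and 157 in cKO members, and Ddx3y, Eif2s3y, Uty and Kdm5d, all on the Y chromosome, were at 0 in the members of both.

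Other lists were further from 0. The 9 nuclear-retained RNAs had a summed ratio of -0.97, with Gm42418 the most abundant. The 10 erythroid genes other than hemoglobin had a ratio of -2.54, with Car2, carbonic anhydrase 2, highest at 25 and 2.63 CPM, and the 7 plasmacytoid dendritic cell genes a ratio of -1.34, with Bst2 highest at 11.9 and 6.07 CPM.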
